A study of Mus musculus with 35 samples.

Results

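The transforming growth factor beta (TGF-beta) pathway was followed through 9 transcripts in isolated microglia: the ligand Tgfb1, its anchor Nrros, the receptors Tgfbr1 and Tgfbr2, the signaling proteins Smad2, Smad3 and Smad4, the inhibitory Smad7 and the co-repressor Ski. They were chosen by name and not by level, and all 9 were among the 21236 genes of the count table. Microglia were sorted by tdTomato fluorescence from the midbrain (n = 12), striatum (n = 12) and prefrontal cortex (PFC, n = 11) of 6 male and 6 female adult mice, which gave 6 samples per region and sex apart from 5 in the male PFC. All animals carried Tmem119-2A-CreERT2/ Ai14(RCL-tdTomato)-D and received tamoxifen, so that the label marked cells in which the Tmem119 locus had driven Cre, and no untreated or unlabeled group is analysed here. Each region was sequenced separately in each mouse, and the comparisons asked whether expression differed by region, by sex, or by sex in a region-dependent manner.

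TGF-beta is made as a latent complex that is tethered at the cell surface, in microglia by the protein NRROS (also called LRRC33), and is released by integrins. Active ligand brings the receptors TGFBR2 and TGFBR1 together, these phosphorylate SMAD2 and SMAD3, and a complex with SMAD4 enters the nucleus, while SMAD7 and SKI restrain the signal at the receptor and at chromatin, respectively. In the adult brain this pathway is known for maintaining the homeostatic identity of microglia.

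All 9 genes are annotated as protein coding in GENCODE M21 on GRCm38, and none shares exon bases with another gene. Ski (ENSMUSG00000029050) lies at chr4:155154075-155222592 on the minus strand, Tgfbr1 (ENSMUSG00000007613) at chr4:47353222-47414931 on the plus strand and Tgfbr2 (ENSMUSG00000032440) at chr9:116084293-116175360 on the minus strand. Tgfb1 (ENSMUSG00000002603) is found at chr7:25687002-25705077, Nrros (ENSMUSG00000052384) at chr16:32142785-32165594 and Smad3 (ENSMUSG00000032402) at chr9:63646767-63757994. Promoter stretches are shown for Ski, the member with an effect of region, and for the receptors, which include the most abundant member. Each is 190 bases long and is taken from RefSeq (GRCm38.p6), from position -250 to position -61 before the RefSeq start and on the strand of the gene. The RefSeq start can differ from the GENCODE coordinates above, and each stretch lies upstream of the GENCODE gene. Capitals mark GGGCGG (a GC box, the motif of SP1-type factors) and CAGAC (a SMAD box), searched on both strands.
Ski: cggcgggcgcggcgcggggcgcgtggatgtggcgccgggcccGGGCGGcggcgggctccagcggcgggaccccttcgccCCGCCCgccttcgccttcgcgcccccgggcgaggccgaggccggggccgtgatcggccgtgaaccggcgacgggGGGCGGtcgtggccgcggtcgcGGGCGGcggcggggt
Tgfbr1: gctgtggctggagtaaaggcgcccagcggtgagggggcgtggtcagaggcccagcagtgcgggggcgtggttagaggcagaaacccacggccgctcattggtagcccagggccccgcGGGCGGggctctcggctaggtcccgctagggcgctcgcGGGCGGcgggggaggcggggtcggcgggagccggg
Tgfbr2: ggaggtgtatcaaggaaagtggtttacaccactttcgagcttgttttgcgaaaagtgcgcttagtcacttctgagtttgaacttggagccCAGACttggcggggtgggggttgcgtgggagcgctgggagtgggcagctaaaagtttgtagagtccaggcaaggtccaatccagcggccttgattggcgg
The Ski stretch (chr4:155222596-155222785) was 86.3% G and C and held 4 GC boxes and 0 SMAD boxes. For Tgfbr1 (chr4:47352972-47353161) the values were 75.8%, 2 GC boxes and 0 SMAD boxes, and for Tgfbr2 (chr9:116175424-116175613) they were 54.2%, 0 GC boxes and 1 SMAD box. Of 32851 RefSeq promoters cut to this length, 22.8% held GGGCGG and 34.6% held CAGAC, and the median G and C content was 51.6%. These are matches of letters, and factor binding was not measured in these samples.

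Each library held 37680501 to 54131421 counts, at which 3 counts correspond to 0.0561 to 0.0789 CPM (the count scaled to library size with TMM factors). Every member exceeded that floor in all 35 samples, from 428 to 895 counts for Tgfb1, the lowest, up to 44230 to 88712 counts for Tgfbr1. The microglia label was checked on 7 microglia markers, which summed to 33225 to 42660 CPM per sample. By contrast, 10 astrocyte markers summed to at most 506 CPM, 10 oligodendrocyte markers to at most 848 CPM and 9 neuron markers to at most 26.5 CPM. Border macrophage markers summed to at most 26.998 CPM, and monocyte and neutrophil markers to at most 25.1 CPM. Ex vivo activation genes, which tissue dissociation can induce, were high in every region, with sums of 21050 to 46816 CPM.

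To compare expression between genes, CPM was divided by the length of the merged exons of each gene. The receptor Tgfbr1 had the highest level, 207 ± 22.8 CPM per kb (SD, n = 35), followed by Nrros at 94.1 ± 11.4 and Tgfbr2 at 62.6 ± 7.61. Ski reached 16.8 ± 2.18 CPM per kb, Smad3 13.6 ± 1.97, Smad7 12.4 ± 2.06, Smad2 10.2 ± 1.13 and Smad4 8.43 ± 5.14. The ligand transcript was the lowest at 2.64 ± 0.441 CPM per kb. The ranges of mean and SD were separate for Tgfbr1, Nrros, Tgfbr2 and Ski, neighbors from Ski down to Smad4 overlapped, and Tgfb1 lay under all of them.

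**Figure D1:**
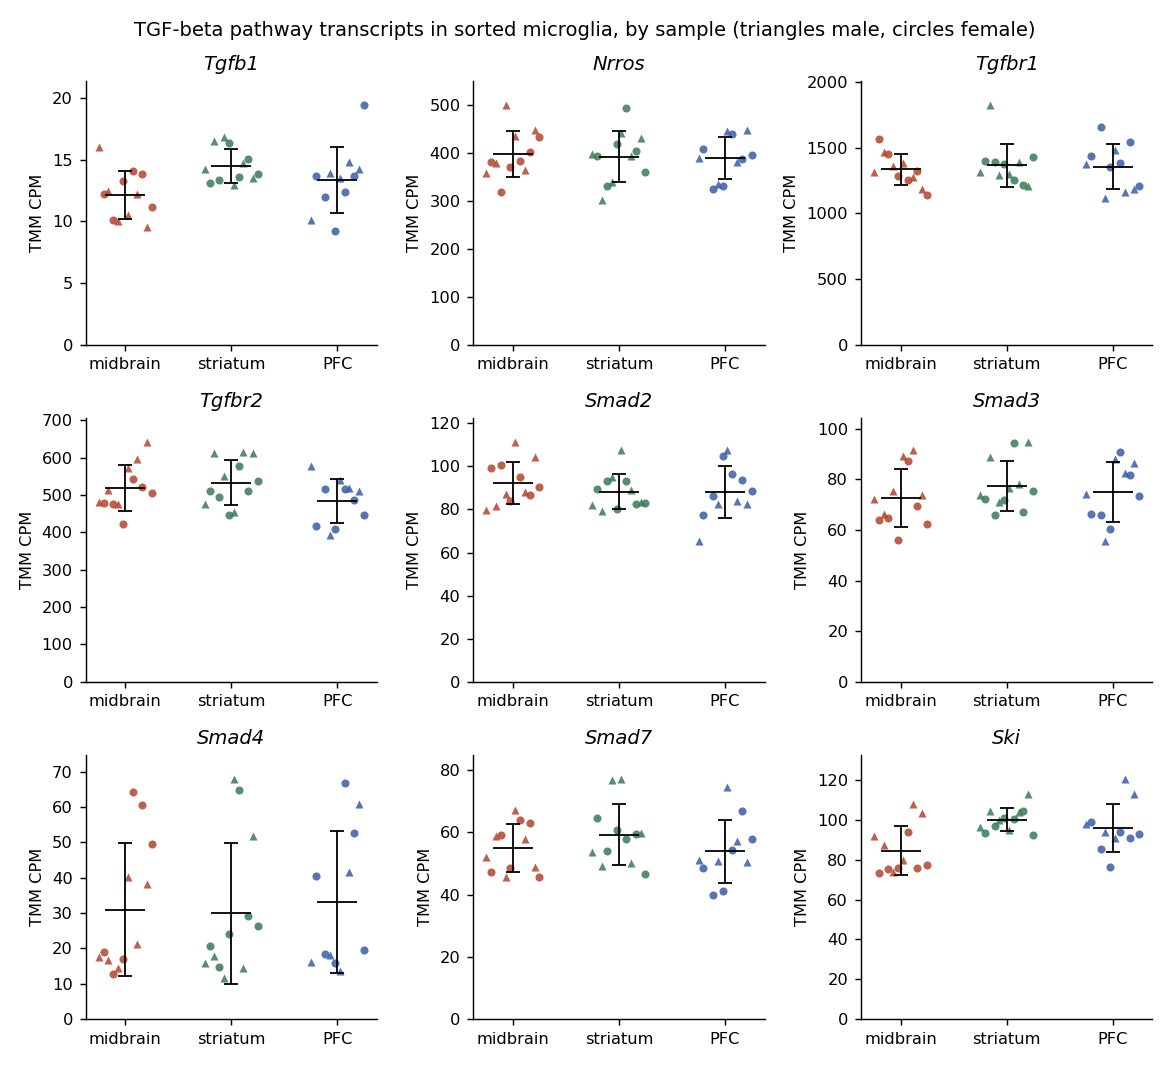
Expression of the 9 transcripts in each of the 35 samples, as TMM-scaled CPM by brain region (triangles male, circles female); bars are the mean and SD of a region. The regions overlap for each gene, the lowest Ski values (from 73.5 CPM) are midbrain samples, and Smad4 spreads from 11.6 to 67.9 CPM.

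Across brain regions, Ski was the single member with a main effect of region, 1 of 9 transcripts beside 8.89% of all genes tested (edgeR's quasi-likelihood test, Benjamini-Hochberg adjusted p under 0.05). By the rule that the study used for pairs of regions, which asks for an effect of region, an unadjusted p under 0.05 and a fold change over 1.2, 0 of 9 members differed between PFC and midbrain, where 5.99% of all genes did. The same count was 0 of 9 between striatum and midbrain (6.47% of all genes) and 0 of 9 between striatum and PFC (3.14%), and DESeq2 and limma-voom gave 0 in each pair as well. With no fold minimum Ski was called in both pairs with the midbrain, 1 of 9 beside 7.1% of all genes for the PFC and 1 of 9 beside 7.73% for the striatum, and 0 of 9 were called in the third pair (4.05%). When the adjusted p of the pair had to be under 0.05, the counts were 0 for PFC against midbrain (6.52% of all genes), 1 for striatum against midbrain (7.45%) and 0 for striatum against PFC (0.57%). Ski passed this rule between PFC and midbrain as well with the mouse as a block (adjusted p = 0.0108) and with DESeq2 (adjusted p = 0.0417). An unadjusted p under 0.05 was reached by Ski between PFC and midbrain, by Ski and Tgfb1 between striatum and midbrain, and by Tgfbr2 between striatum and PFC. The median absolute log2 difference over the 9 members was 0.069 for the PFC against the midbrain, 0.067 for the striatum against the midbrain and 0.059 for the cortical and striatal pair. Over the 8114 genes with a mean of at least 10 CPM these medians were 0.085, 0.10 and 0.081. Because whole sorted populations were sequenced, fewer cells that express a transcript and less of it per cell cannot be told apart.

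**Figure D2:**
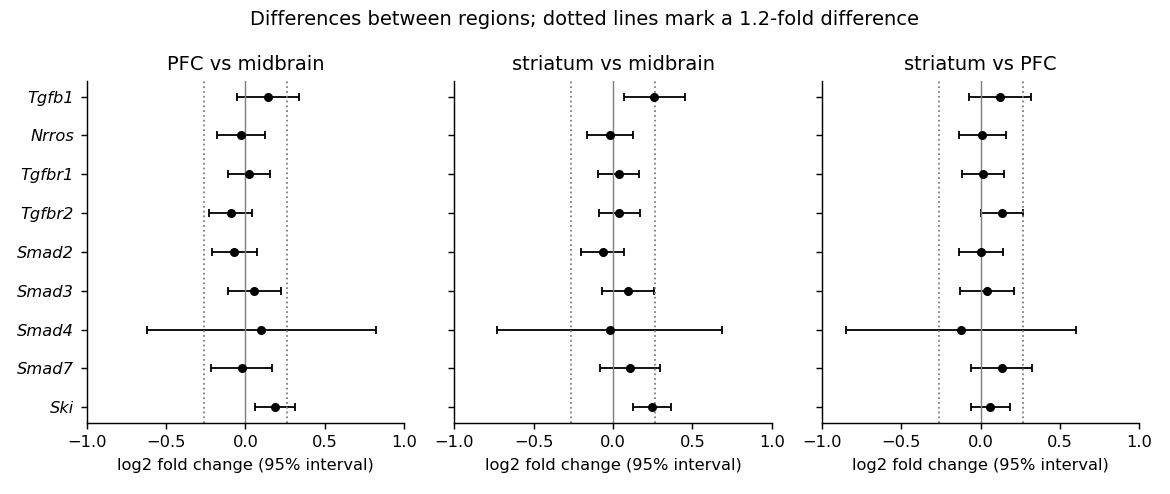
Log2 fold change of each of the 9 transcripts in the 3 pairs of regions (points) with the 95% interval (bars) from the fit over all genes; dotted lines mark a 1.2-fold difference. Ski lies above 0 in both pairs with the midbrain, at 0.19 and 0.25, and the interval of Smad4 is the widest in each pair.

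The ligand Tgfb1 ranged from 9.51 to 15.98 CPM in the midbrain (median 12.2), from 12.95 to 16.8 in the striatum (median 14.1) and from 9.23 to 19.4 in the PFC (median 13.6). All striatal samples lay above the midbrain median, and the regions overlapped. The log2 difference between striatum and midbrain was 0.26 ± 0.095 (SE), with an unadjusted p of 0.00929 and an adjusted p of 0.0893, and Tgfb1 was higher in the striatum in 10 of 12 mice. Its main effect of region did not pass the threshold (adjusted p = 0.178). Between PFC and midbrain the log2 difference was 0.14 (95% interval -0.06 to 0.34). Nrros, which presents the latent ligand, had a midbrain mean of 397 ± 48.9 CPM (SD, n = 12), a striatal mean of 392 ± 52.7 (n = 12) and a PFC mean of 389 ± 44.6 (n = 11). It ranged from 317 to 500 CPM in the midbrain, from 302 to 494 in the striatum and, more narrowly, from 324 to 448 in the PFC. The interval for PFC against midbrain ran from a 0.884-fold to a 1.09-fold difference.

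Neither receptor had an effect of region (adjusted p = 0.946 for Tgfbr1 and 0.401 for Tgfbr2). Tgfbr1, the signaling kinase of the receptor pair, ranged from 1142 to 1566 CPM in the midbrain (median 1319), from 1208 to 1826 in the striatum (median 1345) and from 1121 to 1661 in the PFC (median 1380). These ranges overlapped almost fully, and the 95% intervals were 0.925- to 1.11-fold for PFC against midbrain and 0.936- to 1.121-fold for striatum against midbrain. Tgfbr2, which binds the ligand, ranged from 423 to 641 CPM in the midbrain (median 509), from 446 to 614 in the striatum (median 525) and from 392 to 578 in the PFC (median 509). Medians of the midbrain and PFC were alike, and the PFC held the lowest sample. Within mice, PFC Tgfbr2 exceeded midbrain Tgfbr2 in 2 of 11 animals, with a mean difference of -35.4 ± 62.0 CPM (SD). In mice 7 to 12 alone the log2 difference was -0.17 (p = 0.0279, adjusted p = 0.230 with edgeR). Mice 1 to 6 alone gave a log2 difference of -0.03 for this pair (p = 0.766, adjusted p = 0.957 with edgeR). For Tgfbr2 the striatum exceeded the PFC by 0.13 ± 0.066 on the log2 scale, with an unadjusted p of 0.0487 and an adjusted p of 0.426, in 8 of 11 mice.

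Among the receptor-activated SMAD transcripts, Smad2 had a midbrain mean of 92.3 ± 9.73 CPM (SD, n = 12), a striatal mean of 88.2 ± 8.12 (n = 12) and a PFC mean of 88.1 ± 12.1 (n = 11). Smad3 had means of 72.7 ± 11.4 CPM in the midbrain, 77.5 ± 9.92 in the striatum and 75.1 ± 11.9 in the PFC. In both genes the regional means were closer together than the SD within a region. For striatum against midbrain the 95% interval was 0.869- to 1.05-fold for Smad2 and 0.953- to 1.197-fold for Smad3. The inhibitory Smad7, itself induced by TGF-beta, had means of 54.9 ± 7.74 CPM in the midbrain, 59.2 ± 9.81 in the striatum and 53.9 ± 10.2 in the PFC, with adjusted p-values of 0.579 or more in each pair. Over the 24 differences between regions of the 8 genes other than Smad4, the log2 values lay between -0.09 and 0.26, and the 95% intervals reached no further than 0.854-fold and 1.37-fold.

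Expression of Ski, which recruits co-repressors to SMAD complexes, was lowest in the midbrain. It ranged from 73.5 to 108 CPM in the midbrain (median 78.7), from 92.7 to 113 in the striatum (median 100.4) and from 76.7 to 121 in the PFC (median 94.2). In the midbrain 9 of 12 samples lay below the lowest striatal sample, the other 3 lay among the striatal and PFC values, and the striatum had the smallest coefficient of variation, 5.83% against 14.3% in the midbrain and 12.6% in the PFC. Striatal Ski exceeded midbrain Ski by 0.25 ± 0.060 on the log2 scale (95% interval 1.09- to 1.29-fold, adjusted p = 0.00734), and by 0.19 ± 0.061 in the PFC than in the midbrain (1.05- to 1.24-fold, p = 0.00401, adjusted p = 0.0577). Striatum and PFC differed by 0.06 on the log2 scale (0.956- to 1.14-fold). Within mice, Ski was higher in the PFC in 11 of 11 animals, by 11.5 ± 7.62 CPM (SD), and in the striatum in 11 of 12, by 15.5 ± 9.78 CPM. Its effect of region had an adjusted p of 0.0126, and both differences from the midbrain fell short of the 1.2-fold minimum.

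With the mouse as a block, the region effect of Ski had an adjusted p of 0.000804, and its differences from the midbrain had adjusted p-values of 0.00044 for the striatum and 0.0108 for the PFC. Without mouse 10 and with no block the adjusted p for region was 0.0522, with log2 differences of 0.23 and 0.18, and without each of the other 11 mice in turn it stayed under 0.05. Without mouse 9 the striatum to midbrain difference rose to 0.28 on the log2 scale (adjusted p = 0.00277) and passed the fold minimum. In mice 1 to 6 alone the striatum and midbrain differed by 0.31 (pair adjusted p = 0.0397, region adjusted p = 0.0521). In mice 7 to 12 alone they differed by 0.18 (pair adjusted p = 0.243, region adjusted p = 0.366). With mice 1 to 6 against 7 to 12 as a term and all mice kept, the adjusted p for region was 0.00399. The microglia marker sum had means of 35813 CPM in the midbrain, 39252 in the striatum and 37481 in the PFC. Neuron and astrocyte marker sums were also lowest on average in the midbrain. The neuron marker sum was 2.47 to 6.54 CPM in the midbrain, 6.07 to 14.7 in the striatum and 10.1 to 26.5 in the PFC. In the same order, 8, 6 and 5 of the 9 neuron markers had a regional mean under 1 CPM. The astrocyte marker sum was 211 to 268 CPM in the midbrain, 262 to 441 in the striatum and 261 to 506 in the PFC. The oligodendrocyte marker sum, by contrast, had means of 402 CPM in the midbrain, 482 in the striatum and 338 in the PFC, and the endothelial sum had means of 30.8, 42.8 and 32.6 CPM. An index of astrocyte, oligodendrocyte, neuron and endothelial markers was also added as a covariate. In that fit the log2 differences of Ski from the midbrain were 0.21 for the striatum and 0.18 for the PFC (adjusted p for region 0.0677). The part of other cells in the Ski difference was not tested.

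Smad4, the partner that SMAD2 and SMAD3 share, differed far more between samples than between regions. It ranged from 12.7 to 64.2 CPM in the midbrain (median 20.1), from 11.6 to 67.9 in the striatum (median 22.4) and from 13.4 to 66.9 in the PFC (median 19.6). Each region held the whole range, and the 95% intervals were correspondingly wide, 0.650- to 1.77-fold for PFC against midbrain and 0.602- to 1.61-fold for striatum against midbrain. The SD of its log2 CPM over the 35 samples was 0.84, above that of 99.2% of the 4227 genes whose mean CPM was within 2-fold of its own. For the other members the SD was between 0.15 and 0.24. The counts behind the Smad4 values were 591 to 3324 per sample.

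Most of the high Smad4 values came from mice 7 to 12. In the 17 samples of mice 1 to 6 the level was 11.6 to 40.6 CPM with a median of 16.9, and in the 18 samples of mice 7 to 12 it was 13.4 to 67.9 CPM with a median of 45.6. A level above 25 CPM was found in 1 of 17 samples of mice 1 to 6, the PFC of mouse 2 at 40.6 CPM, and in 14 of 18 samples of mice 7 to 12. Samples of a mouse did not always share the level: mouse 7 had 13.4 CPM in the PFC, 40.1 in the midbrain and 67.9 in the striatum, whereas mouse 8 had 66.9, 64.2 and 64.7 CPM. This division of the mice by number was taken from earlier results of these data, the labels do not say what it stands for, and it is given as a description. The other members moved less with it. The ratio of medians, mice 7 to 12 over mice 1 to 6, was 2.70 for Smad4, 1.24 for Smad3, and between 0.918 and 1.13 for the remaining 7.

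**Figure D3:**
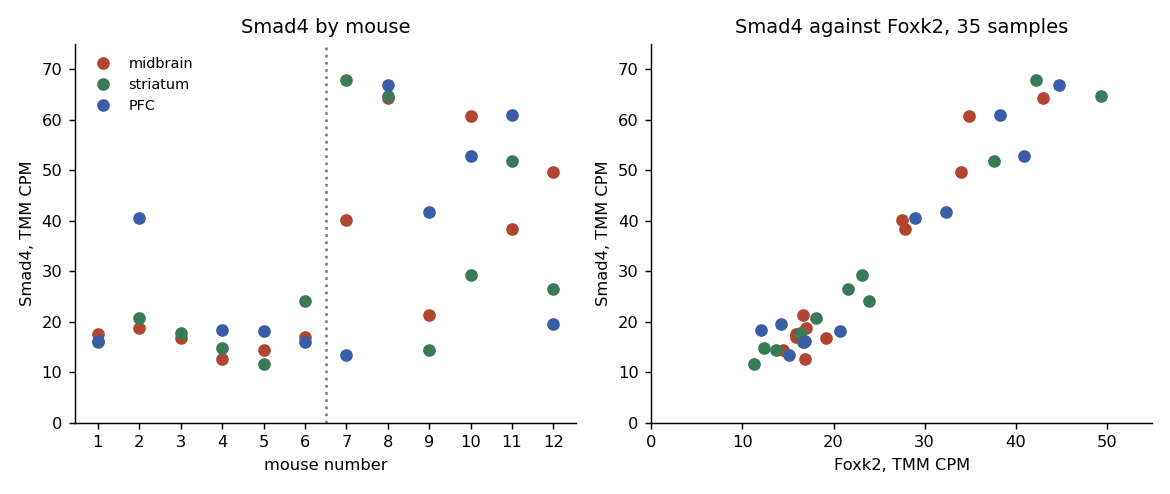
Left, Smad4 (TMM CPM) in the samples of each mouse, colored by region, with a dotted line between mice 6 and 7; right, Smad4 against Foxk2 (both TMM CPM) over the 35 samples. In mice 1 to 6 a single sample, the PFC of mouse 2 at 40.6 CPM, exceeds 25 CPM, and Smad4 and Foxk2 rise together (r = 0.96).

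The transcripts most like each member were found by the Pearson correlation of log2 CPM over the 35 samples, among 8114 genes with a mean of at least 10 CPM. These are descriptions, since the points share libraries and mice. For Smad4 they were Foxk2 (r = 0.96), Rcor1 (r = 0.92) and Cyhr1 (r = 0.91), which also had higher medians in mice 7 to 12, by ratios of 1.98, 2.31 and 1.48. In total 20 genes exceeded r = 0.8 with Smad4, against 5 for Tgfbr2, 1 for Tgfb1 and 0 for the remaining 6 members. The gene listed as CT010467.1 moved the other way (r = -0.73), with a median of 2040 CPM in mice 1 to 6 and 681 CPM in mice 7 to 12, and the total count of a sample had an r of -0.20 with Smad4. For the other members the closest transcripts were Tle3 for Tgfb1 (r = 0.84), Il6st for Tgfbr2 (r = 0.83), Atad1 for Tgfbr1 (r = 0.80), Ssbp4 for Ski (r = 0.79), Osgin2 for Smad2 (r = 0.78) and Dtx4 for Smad3 (r = 0.75), followed by Spry1 for Smad7 and Med26 for Nrros (both r = 0.69). Between members, the highest correlations were 0.67 for Smad3 with Tgfbr2, 0.53 for Smad4 with Nrros and 0.52 for Ski with Smad3, and the lowest was -0.38 for Tgfbr1 with Nrros.

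With regard to sex, 0 of 9 members passed the sex rule (unadjusted p under 0.05, and more than a 1.2-fold change), which 4.13% of all genes did; DESeq2 and limma-voom also gave 0. With no minimum on the fold change there were 3 of 9 (8.02% of all genes), each lower in females (4.23% of all genes): Ski by -0.16 ± 0.049 on the log2 scale (adjusted p = 0.227), Smad3 by -0.14 ± 0.067 (adjusted p = 0.611) and Tgfbr2 by -0.13 ± 0.053 (adjusted p = 0.449). Ski ranged from 73.7 to 108 CPM in the male and from 73.5 to 93.9 CPM in the female midbrain, and from 91.0 to 121 in the male and from 76.7 to 99.0 in the female PFC. The sexes overlapped in each region, and in the striatum the means were 102 ± 6.57 CPM (SD, n = 6) in males and 98.2 ± 4.63 (n = 6) in females. For the other 6 members the log2 difference between females and males was between -0.08 and 0.28, the latter for Smad4 with a 95% interval of 0.807- to 1.83-fold. These p-values count the samples of a mouse separately. In all 3 samples of mouse 2, labeled female, Xist and the sum of 4 Y-linked genes were each under 1 CPM, while the other female samples had 38.4 to 87.3 CPM of Xist. Without that mouse the differences were -0.15 for Ski (p = 0.00833), -0.12 for Smad3 (p = 0.111) and -0.12 for Tgfbr2 (p = 0.0568). An interaction of region and sex was found for 0 of 9 members with edgeR, DESeq2 and limma-voom (0.0% of all genes with edgeR, 0.00471% with each of the other tools), and 0 had an unadjusted p under 0.05, the smallest being 0.218 for Tgfbr1.

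The wider pathway was described with 58 other genes of the table (63 were listed), of which 44 had a mean over 1 CPM. Of these 58 genes 6 had an effect of region, 10.3% beside 8.89% of all genes. There were 12 when mouse replaced sex as a blocking term. The 8.89% belongs to the fit without a block on all mice, and the share of all genes in the other fits is not given here. Leaving out 1 mouse gave 2 to 7, with 2 without mouse 10 or mouse 12 and 3 without mouse 2, 3, 4, 7, 8, 9 or 11. Ligands other than Tgfb1 were scarce: Gdf15 was at 9.07 CPM, and the other 8, among them Tgfb2 and Tgfb3, were at means under 1 CPM. The most abundant genes were Itgb5 (2031 CPM) and Itgb1 (369.9 CPM), integrin subunits, with adjusted p-values for region of 0.478 and 0.940. Mmp14, a membrane protease able to release latent TGF-beta, was higher in the midbrain, at 55.2 ± 15.1 CPM (SD, n = 12) against 42.0 ± 9.53 in the striatum and 38.8 ± 7.28 in the PFC. Its log2 difference was -0.51 ± 0.13 for PFC and -0.40 ± 0.13 for striatum against midbrain, and it kept its region effect without each mouse in turn (adjusted p of 0.00544 to 0.0401).

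Among other receptors, the co-receptor endoglin (Eng) was highest in the striatum, 108 ± 15.0 CPM (SD, n = 12), with 89.5 ± 13.7 in the midbrain and 84.1 ± 17.7 in the PFC (adjusted p for region 0.0280). The endothelial marker sum was also highest on average in the striatum (42.8 CPM, against 30.8 in the midbrain and 32.6 in the PFC). The part of endothelial cells in the Eng difference was not tested. The activin receptor Acvr2b was at 9.42 ± 2.01 CPM in the midbrain, 12.5 ± 1.18 in the striatum and 12.1 ± 2.90 in the PFC (adjusted p for region 0.0452). Pmepa1, a target gene whose product sequesters receptor-activated SMAD proteins, was at 155 ± 22.9 CPM in the midbrain, 191 ± 37.6 in the striatum and 194 ± 40.8 in the PFC (adjusted p for region 0.0416), and was higher than in the midbrain in 11 of 11 mice for the PFC and 11 of 12 for the striatum. Ncor1, a nuclear co-repressor, rose from 40.5 ± 6.36 CPM in the midbrain to 53.0 ± 8.02 in the striatum (adjusted p for region 0.0326). It was called in no other pair of regions. The sixth gene, Ltbp1, was at a mean of 0.384 CPM with midbrain samples mostly at 0, and it had no region effect with the mouse as a block (adjusted p = 0.0887). In the fit without a block, these calls were less secure than that of Mmp14. Leaving out a mouse ended the effect of Eng for mice 2, 3, 4, 5 and 8, and of Pmepa1 for mice 1, 2, 3, 7, 10, 11 and 12. It ended that of Ncor1 for mice 2, 4, 5, 9, 10, 11 and 12, of Ltbp1 for mice 7 to 12, and of Acvr2b for every mouse but mouse 5. With the mouse as a block and all mice kept, Eng (adjusted p = 0.000661), Pmepa1 (0.00239), Acvr2b (0.0119) and Ncor1 (0.0170) had an effect of region.

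Genes that TGF-beta regulates in many cell types gave 3 of 19 with an effect of region (15.8% beside 8.89% of all genes in the same fit). The count was 5 with the mouse as a block, but 1 without mouse 2, mouse 7 or mouse 10, and the share of all genes in those fits is not given. Their directions differed. Pmepa1 was lower in the midbrain, as given above, whereas Cdkn1a, an inhibitor of the cell cycle that shares 7.68% of its exon bases with another gene, ranged from 93.9 to 356 CPM in the midbrain (median 247), from 33.4 to 206 in the striatum (median 104) and from 85.5 to 258 in the PFC (median 116). The midbrain samples were the higher ones, with overlap. The log2 difference of Cdkn1a was -0.83 ± 0.22 for PFC and -1.14 ± 0.21 for striatum against midbrain (adjusted p = 0.0137 and 0.000695). Bhlhe40, a transcription factor, had 3.50 ± 0.829 CPM in the midbrain and 1.26 ± 0.915 in the PFC, and was not called between striatum and midbrain. Its region effect (adjusted p = 0.0329 without a block) was lost without mouse 2, 4, 5, 7, 8 or 10. With the mouse as a block and all mice kept, its adjusted p was 0.00659. The most abundant genes of the list, Junb and Skil, did not pass the test (adjusted p for region 0.165 and 0.215), although Junb did with the mouse as a block (adjusted p = 0.0250). The median log2 difference over the 19 genes was -0.08 for PFC and -0.21 for striatum against midbrain.

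**Figure D4:**
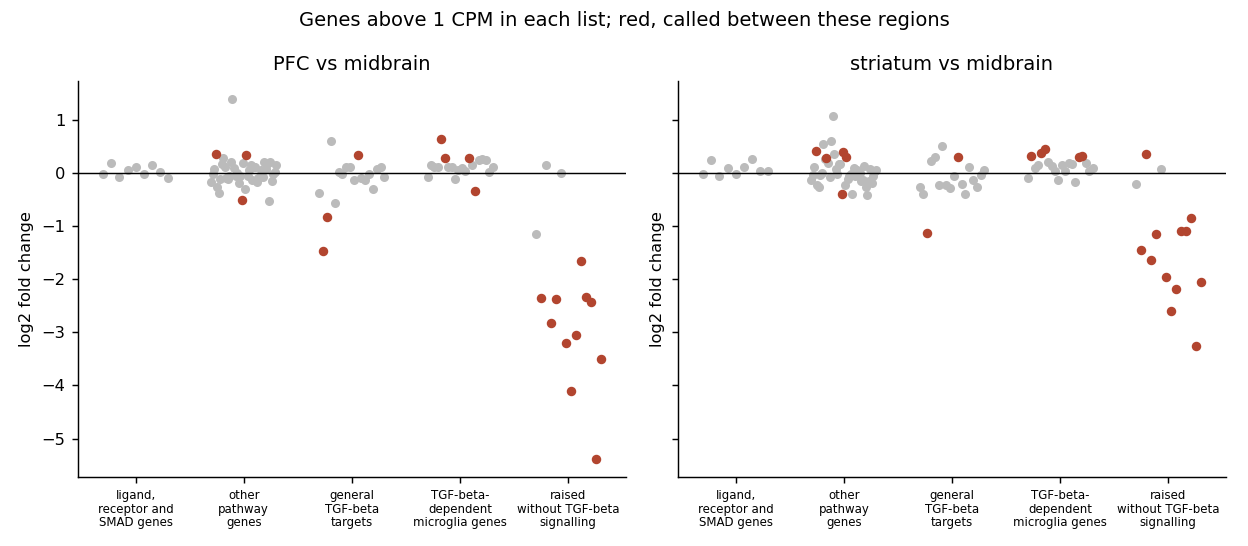
Log2 fold change of PFC (left) and striatum (right) against midbrain for genes with a mean above 1 CPM, grouped into the 9 transcripts and 4 lists of related genes; red points passed the rule for that pair. Among the 9 transcripts 0 are red, the median of the TGF-beta-dependent microglia genes is 0.11 (left) and 0.15 (right) with Pros1 called lower in the PFC, and 11 genes known to rise without the pathway lie far below 0 in each panel.

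Microglia genes that are known to need TGF-beta signaling had an effect of region in 8 of 20 cases, beside 8.89% of all genes. The list was chosen with earlier results of these data known, and the study had already reported P2ry12 and Fcrls as lowest in the midbrain. Between PFC and midbrain, 3 of 20 were higher in the PFC (2.75% of all genes) and 1 was lower (3.24%), and between striatum and midbrain 5 were higher in the striatum (3.5%) and 0 lower (2.98%). Fcrls, a microglial Fc receptor-like gene, rose from 2864 ± 277 CPM (SD, n = 12) in the midbrain to 3708 ± 451 in the striatum and 4454 ± 350 in the PFC (adjusted p for region 2.62e-09), and its midbrain and PFC samples did not overlap (at most 3339 and at least 3858 CPM). Gas6, a ligand of TAM receptors, was at 167 ± 16.4, 228 ± 18.4 and 203 ± 19.9 CPM in the midbrain, striatum and PFC. Sall1, a transcription factor that defines microglia, was at 171 ± 24.9 CPM in the midbrain and 209.7 ± 17.6 in the striatum. P2ry12, the purinergic receptor of resting microglia, was at 6436 ± 673 CPM in the midbrain and 7842 ± 993 in the PFC, and Siglech, a sialic acid-binding lectin, was at 1025 ± 62.7 CPM in the midbrain and 1271 ± 81.0 in the striatum. Pros1, another TAM receptor ligand, went the other way, with 574 ± 56.02 CPM in the midbrain and 455 ± 65.8 in the PFC. Csf1r, the receptor that microglia need for survival, was at 7110 ± 1036 CPM in the midbrain and 8906 ± 1254 in the striatum, but shares 15.1% of its exon bases with another gene. Its effect of region without a block was lost when mouse 2, 3, 4, 9, 10 or 12 was left out. With the mouse as a block and all mice kept, the adjusted p of Csf1r was 0.000209. For Sall1, P2ry12, Siglech, Pros1 and Csf1r the mean of the third region is not given here. By the rule with the fold minimum P2ry12 was not called between striatum and midbrain. Slc2a5, a sugar transporter, was the eighth gene with an effect of region, without a pair of regions past the fold minimum. The receptor Tgfbr1, which belongs to this list as well, did not pass (adjusted p = 0.946). The median log2 difference over the 20 genes was 0.11 for PFC and 0.15 for striatum against midbrain, beside 0.01 and -0.01 over all genes with a mean of at least 10 CPM.

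Of 14 genes reported to rise in microglia that lack TGF-beta signaling, 12 had an effect of region (85.7% beside 8.89% of all genes), a pattern that earlier results of these data had already shown for many of them. Between PFC and midbrain 11 were higher in the midbrain (3.24% of all genes) and 0 lower (2.75%), and between striatum and midbrain 11 were higher in the midbrain (2.98%) and 1, the lysosomal gene Cd68, was lower (3.5%). The receptor tyrosine kinase Axl, for example, had medians of 49.4 CPM in the midbrain, 15.8 in the striatum and 9.175 in the PFC. Clec7a, a lectin of activated microglia, had medians of 23.9, 11.4 and 5.70 CPM in the same order. The other 9 genes higher in the midbrain were Itgax, Cd74, H2-Aa, H2-Ab1, Lgals3, Lpl, Spp1, Cybb and Ms4a7. Border macrophages express some of these as well, and the sum of 7 border macrophage markers was 1.93 to 26.998 CPM in the midbrain, 3.95 to 11.4 in the striatum and 3.24 to 10.7 in the PFC; their part in the result was not tested. Ctsb, a lysosomal protease and the most abundant gene of the list, did not pass the test (adjusted p for region 0.588). The median log2 difference over the 14 genes was -2.40 for PFC and -1.30 for striatum against midbrain, while that over the 9 ligand, receptor, SMAD and co-repressor transcripts was 0.02 and 0.04.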

How the data were processed

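Microglia sorted by tdTomato from 3 brain regions of 12 mice were sequenced in bulk after Smart-Seq HT amplification and Nextera XT library preparation. The authors used Trimmomatic for trimming and HISAT2 for alignment (GRCm38) and deposited raw counts per gene, keeping genes of at least 1 CPM in some sex-by-region subgroup. The counting tool, annotation release and use of strand are not given in the sources used here, so reads of overlapping genes on opposite strands cannot be told apart. Amplified reads carry no molecular identifiers. Libraries held 37680501 to 54131421 counts. A column whose name gives PFC for mouse 3 was taken as striatum, from its label and library number.

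Genes were tested with edgeR 4.0.16 (TMM, quasi-likelihood, robust) in R 4.3.3, with region and sex as terms over 35 samples and 21236 genes. P-values were adjusted by the Benjamini-Hochberg method. Pairs of regions were called at an effect of region with p under 0.05 and a fold change over 1.2. SE was derived from the fold change and F, and the scripts were tested on simulated data. Gene symbols were found for 21103 genes, and 133 had none.

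Samples with the same number were taken to come from the same mouse. Over 8114 genes, deviations correlated with a mean r of 0.36 in 34 same-number pairs (32 over 0.1) and -0.07 in 170 pairs with different numbers. The 170 pairs include some across mice 1 to 6 and 7 to 12, which same-number pairs cannot, so this contrast does not settle the pairing. Named genes were the 9 members, list genes with a region effect (up to 12 by adjusted p among those with a called pair), the 2 most abundant of each list and the genes most like each member; an item this rule names is not reported here. The members and lists were chosen with earlier results of these data known. Alternatives were DESeq2 1.42.0, limma-voom (limma 3.58.1), DESeq2 size factors, filters on low counts, the mouse as a block and a covariate for other brain cells. Further alternatives were mice 1 to 6 or 7 to 12 alone, this division as a term, other call rules and leaving out each mouse.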

Additional observations from a re-analysis of the deposited data

How the results depend on the processing

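The count of members with an effect of region was 1 (Ski). It was 0 in mice 1 to 6 alone, 0 in mice 7 to 12 alone, 0 with the index of other brain cells as a covariate, and 0 to 1 when each mouse was left out (0 without mouse 10). For these fits the share of all genes with such an effect is not given here, so the counts have no background beside them. With no minimum fold, 1 member (Ski) differed from the midbrain in the PFC, 1 (Ski) in the striatum, and 3 differed by sex. By the rule with the fold minimum, leaving out each mouse gave 0 to 1 between striatum and midbrain (1 without mouse 9). With an adjusted p for the pair in place of the fold minimum, 1 differed there (Ski, adjusted p of 0.00277 to 0.0319 without each mouse in turn), and Tgfb1 reached 0.0448 without mouse 1. The cause of these changes was not tested, and the fits that left out mice also had fewer samples.

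With the mouse as a block (paired samples), 12 genes of the wider pathway and 5 general target genes had an effect of region, and Ski had an adjusted p of 0.0108 between PFC and midbrain, which the adjusted-p rule calls. By the rule with the fold minimum the block changed no call of a member. In mice 1 to 6 alone these lists gave 1 and 0, the TGF-beta-dependent microglia genes 3 and the genes raised without signaling 7, and in mice 7 to 12 alone the general target genes gave 0. Leaving out each mouse gave 2 to 7 for the pathway and 1 to 3 for the general target genes. The share of all genes with an effect of region in these alternative fits is not given, so these counts cannot be set against a background. Among single members, 1285 values kept their side of the threshold under an alternative, 7 passed it and 4 lost it, and 0 reversed among these. DESeq2, limma-voom, DESeq2 size factors and both filters on low counts kept the counts of members with an effect of region and of pairs past the fold minimum. By the adjusted-p rule DESeq2 also called Ski between PFC and midbrain (adjusted p = 0.0417), and its unadjusted p for Tgfbr2 between striatum and PFC was 0.0536. Of the members, Tgfb1 had the fewest counts, at 428 to 895 per sample.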
